A study of Homo sapiens with 40 samples.

Results

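The CYP4 family of cytochrome P450 enzymes was described in HepaRG cells through 8 of its genes, which were CYP4F22, CYP4F2, CYP4F3, CYP4F11, CYP4F12, CYP4A11, CYP4A22 and CYP4V2. They were taken by gene name from the 56568 gene names in the deposited tables. CYP4F22 was chosen by its FPKM in the control and PCB 126 libraries, where it was low at the higher doses, and the other 7 were chosen as its relatives. The values of CYP4F22 against control are therefore a description with no test, and only the relatives were tested there.

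CYP4 enzymes sit in the endoplasmic reticulum membrane and hydroxylate fatty acids at or near the end opposite to the acid group, a step called omega-hydroxylation. In liver, alcohol and aldehyde dehydrogenases then turn the product into a dicarboxylic acid, which peroxisomes shorten. CYP4F22 acts on ultra-long-chain fatty acids and is best known from skin, where its product is built into the acylceramides of the water barrier and where its loss causes ichthyosis. CYP4F2 and CYP4F3 hydroxylate leukotriene B4, and CYP4F2 and CYP4F11 also act on vitamin K. CYP4A11 is the main medium-chain fatty acid omega-hydroxylase of human liver and kidney and a target of the fatty acid receptor PPARA, CYP4A22 is its near copy, and CYP4V2 is the gene altered in Bietti crystalline dystrophy of the eye.

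HepaRG (HPR 116) is a human hepatic line, bought as differentiated cells, whose cultures hold hepatocyte-like and primitive biliary cells. The cells received the test medium, with serum and 1% DMSO in every group, from day 8 to day 14. Every group had 5 libraries. The control received solvent alone, and 3 groups received PCB 126, a polychlorinated biphenyl of the dioxin-like kind that activates the aryl hydrocarbon receptor (AhR), in a concentration of 100 pM, of 10 nM or of 1 µM. A further 3 groups received the herbicide glyphosate, dosed with 10 µg/L, with 1 mg/L or with 0.1 g/L, and the last of the 8 groups received 10 µg/L of Roundup, a glyphosate-based product. All 40 libraries came from 1 cell line, no label says that they came from separate cultures, and p-values measure the spread between these libraries, which may be technical.

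Abundance was measured as FPKM, that is, fragments relative to transcript length and to all mapped fragments, summed over the transcripts of a gene name. The FPKM do not give the depth of the libraries, for which the paper states a range of reads per sample. The hepatocyte marker ALB was present at 9144 to 12989 FPKM in the control libraries and the biliary marker KRT19 at 189 to 391 FPKM, whereas the biliary marker EPCAM was at 0 in all control libraries except replicate 2, at 0.0401 FPKM. CYP1A1, the classical AhR target, rose with PCB 126 by 6.61 ± 0.91 (SE) on the log2 scale at 1 µM (limma adjusted p = 7.4e-05). A principal component analysis set 9 of the 40 libraries apart from the rest, which were control replicate 5, replicates 3 and 5 at 10 nM, replicates 1 and 5 at 1 µM, replicate 5 of glyphosate 10 µg/L, replicate 2 of glyphosate 0.1 g/L, and replicates 4 and 5 of Roundup. Of these, 5 carry the fifth run of library numbers.

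The CYP4F genes lie in a cluster on chromosome 19 (GRCh38), where CYP4F22 spans 15508493 to 15552317 on the plus strand and the span from CYP4F3 to CYP4F12 follows 88.6 kb away. CYP4F3 (15640897 to 15662825) and CYP4F12 (15672757 to 15697174) stand 9.93 kb apart on the plus strand, and CYP4F2 (15878023 to 15898120) and CYP4F11 (15912367 to 15934867) stand 14.2 kb apart on the minus strand. CYP4A11 (46929177 to 46941484, minus strand) and CYP4A22 (47137435 to 47149741, plus strand) are on chromosome 1, and CYP4V2 (186191520 to 186213456, plus strand) is on chromosome 4. StringTie, the assembler used by the authors, merged CYP4F3 with CYP4F12 and CYP4F2 with CYP4F11 into shared loci, so the genes of those pairs were kept apart here by gene name. The locus of CYP4V2 also held the genes F11 and KLKB1. Transcripts without a gene name were left out of the sums. In control they held a mean of 6.50 FPKM in the CYP4V2 locus, 2.17 in that of CYP4F3 and 1.84 in that of CYP4F2.

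How well short reads can tell these genes apart was read from their coding sequences. Over the longest open reading frame of each gene in GENCODE version 44, CYP4A11 and CYP4A22 were 97.4% identical and CYP4F2 and CYP4F3 were 94.7% identical, whereas CYP4F22 was at most 71.9% identical to any relative. Of all windows of 75 bases, the read length, 23.7% of those in CYP4A11 occurred unchanged in CYP4A22, 7.59% of those in CYP4F2 occurred in CYP4F3, and none of the 1522 windows of CYP4F22 occurred in a relative. The reads were paired, so a fragment is shared only where both of its reads fall in such windows. The values of CYP4A11 against CYP4A22, and of CYP4F2 against CYP4F3, are thus uncertain to the extent that shared fragments were split between them. The start of the reading frame shows both pairs, with positions 1 to 75 written 5′ to 3′ on the coding strand and the bases that differ within a pair in capitals (7 for CYP4A and 8 for CYP4F).

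CYP4A11: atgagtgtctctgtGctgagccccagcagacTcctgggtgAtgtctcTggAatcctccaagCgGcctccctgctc
CYP4A22: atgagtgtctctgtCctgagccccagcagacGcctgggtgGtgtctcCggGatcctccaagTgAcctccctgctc
CYP4F2: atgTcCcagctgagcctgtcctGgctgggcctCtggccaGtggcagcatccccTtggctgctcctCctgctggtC
CYP4F3: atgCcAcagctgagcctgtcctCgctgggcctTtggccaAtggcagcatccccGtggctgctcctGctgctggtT

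The promoters of the members are shown because PCB 126 acts through the AhR, which binds DNA at a core of GCGTG. RefSeq promoters of 300 bases (GRCh38.p14, 250 bases before to 50 after the start) were held for 5 of the 8 genes, and CYP4F12, CYP4A11 and CYP4A22 had no entry. The letters GCGTG, on either strand, occurred in 36.5% of all 35116 promoters of that length. They occurred 1 time each in the promoters of CYP4F22, starting at base 101 of the 300, and CYP4V2, starting at base 273, and not in those of CYP4F2, CYP4F3 and CYP4F11 (both entries). A match is a description of these letters and not of binding. CYP4F22, the gene with the lowest share of its control level at 1 µM, is shown with CYP4V2, which also holds the core, and with CYP4F2, which does not. Each is written 5′ to 3′ on the strand of the gene with the core in capitals. In CYP4F22 the core lies on the opposite strand, so its capitals read CACGC. The promoters are CYP4F22 at chr19:15508275-15508574 (plus strand), CYP4V2 at chr4:186191317-186191616 (plus strand) and CYP4F2 at chr19:15898025-15898324 (minus strand).

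CYP4F22: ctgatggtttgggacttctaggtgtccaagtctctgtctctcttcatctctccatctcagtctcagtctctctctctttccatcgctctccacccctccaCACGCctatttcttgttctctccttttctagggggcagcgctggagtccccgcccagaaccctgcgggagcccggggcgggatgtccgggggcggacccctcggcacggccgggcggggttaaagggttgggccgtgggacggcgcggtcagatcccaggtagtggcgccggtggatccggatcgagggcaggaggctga
CYP4V2: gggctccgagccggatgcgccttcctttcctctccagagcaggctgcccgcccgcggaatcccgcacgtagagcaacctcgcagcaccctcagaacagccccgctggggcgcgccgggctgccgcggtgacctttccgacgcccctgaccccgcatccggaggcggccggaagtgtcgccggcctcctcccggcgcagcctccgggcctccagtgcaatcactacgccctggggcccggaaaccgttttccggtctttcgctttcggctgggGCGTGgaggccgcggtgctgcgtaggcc
CYP4F2: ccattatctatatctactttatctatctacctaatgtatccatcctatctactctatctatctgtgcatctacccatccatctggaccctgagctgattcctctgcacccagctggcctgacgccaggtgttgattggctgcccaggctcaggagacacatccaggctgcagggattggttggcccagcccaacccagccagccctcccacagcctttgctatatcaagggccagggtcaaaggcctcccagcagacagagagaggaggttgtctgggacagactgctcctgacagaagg

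In control cells the 8 genes differed widely in FPKM, which is scaled by transcript length. CYP4F11 was highest at 33.7 ± 12.4 FPKM (SD, n = 5), above 97.5% of the 37703 genes detected in control libraries. CYP4F3 at 13.8 ± 3.05 and CYP4V2 at 13.1 ± 3.70 followed and did not differ beyond their spread. CYP4F22 at 6.55 ± 1.64 and CYP4F2 at 5.33 ± 1.66 overlapped as well, as did CYP4F12 at 3.23 ± 0.963 and CYP4A11 at 2.78 ± 1.28. CYP4A22 was lowest at 0.643 ± 0.406 FPKM. A gene that is best known from skin thus had about the same FPKM in these hepatic cells as the liver enzyme CYP4F2.

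**Figure D1:**
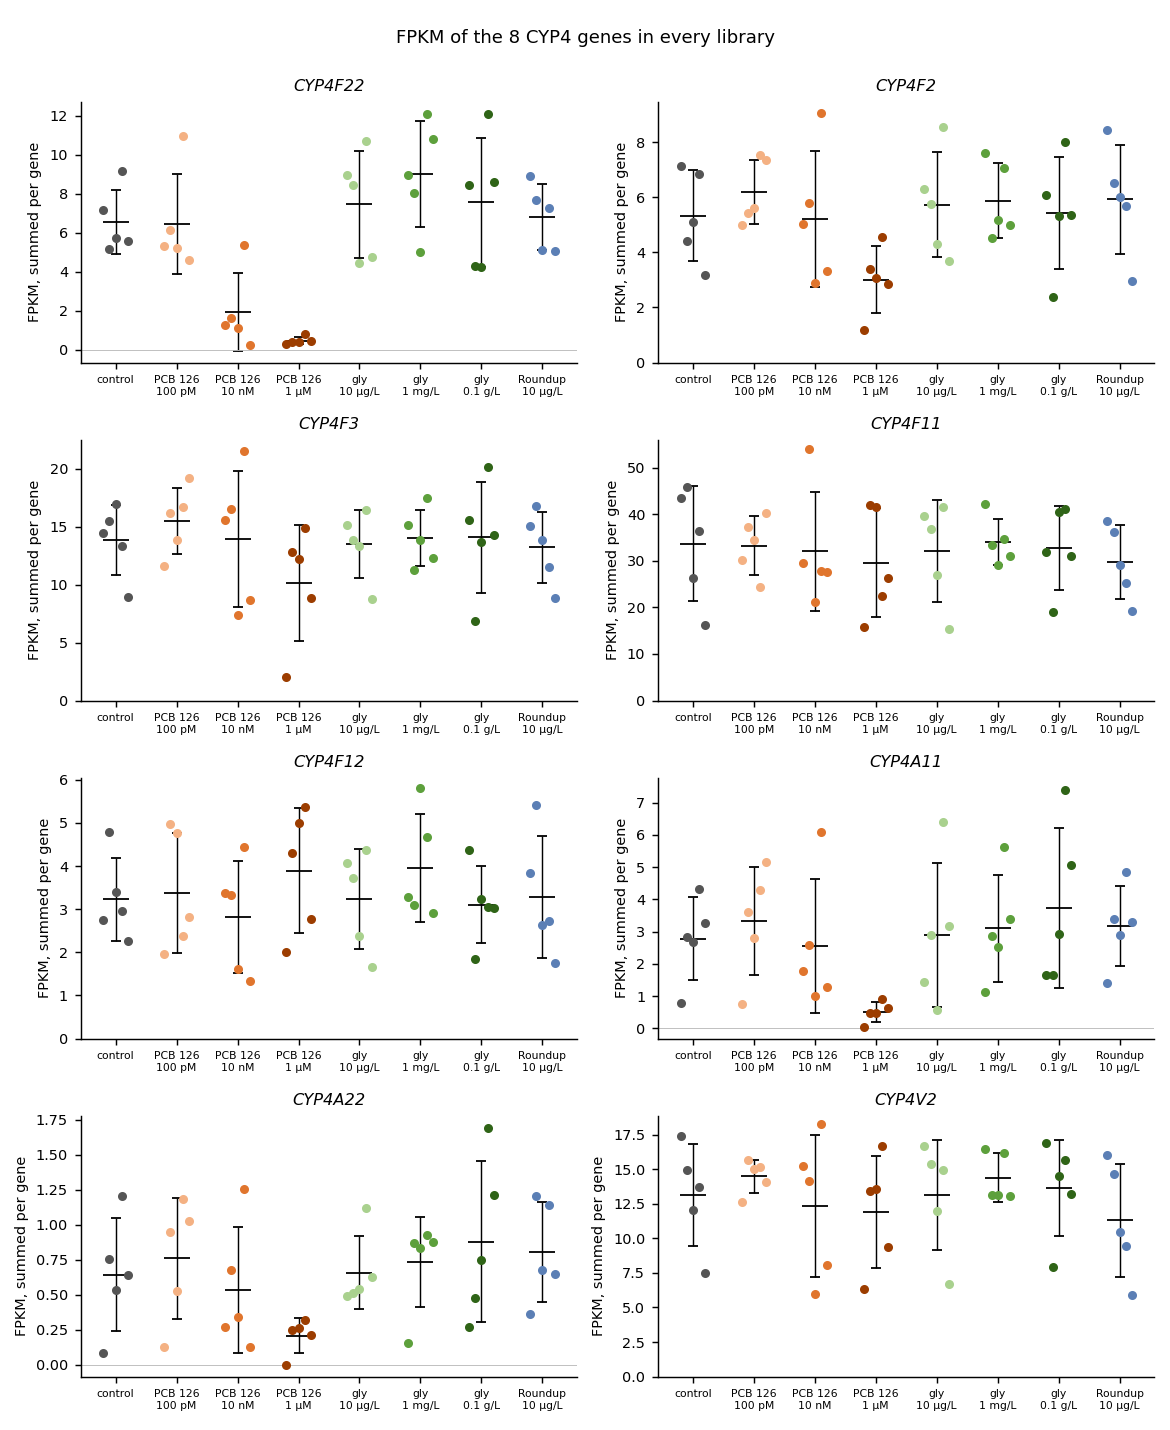
FPKM (y axis, summed per gene name) of the 8 CYP4 genes in each of the 40 libraries, by group (x axis, gly is glyphosate). Each point is 1 library, in the order of replicates 1 to 5 from left to right, and the bar with whiskers is the mean ± SD of 5. CYP4F22 is under 0.8 FPKM in all 5 libraries at 1 µM PCB 126, and CYP4A11 and CYP4A22 are also low there. The herbicide groups overlap with control in every gene.

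CYP4F22 was near control at the lowest PCB 126 dose and lower at each of the next doses. The control libraries held 7.17, 5.15, 5.72, 9.15 and 5.57 FPKM, and those at 100 pM held 5.33, 6.13, 5.24, 10.9 and 4.60 FPKM. At 10 nM the values were 1.29, 1.65, 1.13, 5.37 and 0.248 FPKM. At 1 µM they were 0.309, 0.385, 0.384, 0.796 and 0.456 FPKM. The groups at 100 pM and control overlapped, 4 of the 5 libraries at 10 nM were under every control library, and at 1 µM no library came near the control range. The mean at 10 nM was 29.6% of the control mean, and the mean at 1 µM was 7.11% of it, so that control stood 14.1-fold higher than 1 µM. On the log2(FPKM + 1) scale, the scale of all fold changes here, which understates changes of genes with low FPKM, the differences from control were -0.05, -1.55 and -2.35 at the 3 doses. These are the values that selected the gene.

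Single libraries stood out within this pattern. Replicate 4 at 10 nM kept 5.37 FPKM of CYP4F22, inside the control range, and without this library the mean of the group was 16.5% of control. Its CYP1A1 level of 228 FPKM lay within the 92.1 to 377 FPKM of that group. In the 100 pM group, replicate 5 had both the lowest CYP4F22 (4.60 FPKM, under every control library) and the highest CYP1A1 (319 FPKM, against 1.09 to 70.9 in the other 4). Both are descriptions of single libraries. Without PCB 126, CYP4F22 also reached down to 4.27 FPKM in the herbicide libraries.

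The transcript ENST00000269703, with 14 exons, made up 93.4% of the FPKM of CYP4F22 over all libraries. Its mean was 6.05 ± 1.51 FPKM in control and 0.466 ± 0.192 at 1 µM. The other transcript, ENST00000601005, held 0.504 ± 0.213 FPKM in control and was listed at 0 in every library at 1 µM. Both known transcripts of the gene were therefore low at the top dose.

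CYP4F22 overlapped with control in all herbicide groups, with medians above the control median of 5.72 FPKM. Its mean was 114% of the control mean with glyphosate at 10 µg/L, 137% at 1 mg/L, 115% at 0.1 g/L and 104% with Roundup. These differences from control were not tested. Its range was 4.43 to 10.7 FPKM with glyphosate at 10 µg/L (median 8.44), 5.02 to 12.1 at 1 mg/L (median 8.97), 4.27 to 12.1 at 0.1 g/L (median 8.46) and 5.05 to 8.89 with Roundup (median 7.28). All 20 herbicide libraries were above every library at 1 µM PCB 126. Within the herbicide groups, which were not used to choose the gene, Roundup and glyphosate at the same labelled 10 µg/L did not differ detectably (log2 difference -0.08, 95% interval -0.65 to 0.49, limma adjusted p = 0.974). A comparison across the 4 herbicide groups likewise did not pass the test (adjusted p = 0.958).

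Of the 7 relatives, 6 passed the filter on low variance (variance of FPKM above 1), and CYP4A22 did not. At 1 µM, 0 of these 6 were called against control by limma at an adjusted p of 0.05, where 1.87% of the 9755 genes tested were called (63 higher and 119 lower). CYP4A11 and CYP4F2 had an unadjusted p under 0.05, which makes 2 of 6, and so had 1322 of the 9755 genes. The median log2 fold change of the 6 was -0.38, and that of all genes tested was -0.26.

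Among the enzymes of leukotriene and vitamin K metabolism, CYP4F2 had the lowest mean relative to control at 1 µM. Its control libraries held 7.13, 4.40, 5.09, 6.84 and 3.20 FPKM. Its libraries at 1 µM held 1.18, 3.39, 3.07, 4.57 and 2.86 FPKM. The ranges overlapped, and the mean at 1 µM was 56.5% of control, with a log2 difference of -0.68 (95% interval -1.26 to -0.09, adjusted p = 0.276). At the 2 lower doses its group means were 116% and 98.0% of the control mean.

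CYP4F3, which shares the most sequence with CYP4F2, had control values of 14.5, 15.5, 17.0, 13.3 and 8.96 FPKM. At 1 µM the values were 2.01, 12.8, 12.2, 14.9 and 8.85 FPKM, so 4 libraries lay inside or just under the control range and replicate 1 far under it. The log2 difference was -0.59 (95% interval -1.32 to 0.15, adjusted p = 0.477). Without the libraries that stand apart, replicates 1 and 5 among them, it was -0.17 (adjusted p = 0.651).

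CYP4F11, the most abundant member, ranged from 16.3 to 45.9 FPKM in control and from 15.8 to 41.9 FPKM at 1 µM, with a log2 difference of -0.18 (95% interval -0.82 to 0.46, adjusted p = 0.787). CYP4F12, a liver and intestinal enzyme, ranged from 2.27 to 4.79 FPKM in control and from 2.00 to 5.38 FPKM at 1 µM, with a log2 difference of 0.18 (95% interval -0.42 to 0.77, adjusted p = 0.775). Both sets of ranges overlapped almost wholly. Quantile normalization, which takes out the general decrease of the 1 µM libraries, gave CYP4F12 a difference of 0.48 that passed the test (adjusted p = 0.0485).

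CYP4A11, the medium-chain omega-hydroxylase, had the lowest mean relative to control among the 7 relatives at 1 µM. Its control libraries held 0.787, 2.85, 2.66, 4.32 and 3.26 FPKM. Its libraries at 1 µM held 0.0486, 0.459, 0.477, 0.918 and 0.624 FPKM. Control replicate 1 was low enough to overlap with the 1 µM group, whose replicate 4 was above it, and the other 4 control libraries were above all at 1 µM. Within each replicate number the 1 µM library was under the control library. Over the 8 groups CYP4A11 was lowest in replicate 1 in 5 and highest in replicate 4 in 7. The labels do not say what libraries of one number share. The mean at 1 µM was 18.2% of the control mean, with a log2 difference of -1.27 ± 0.36 (SE, 95% interval -2.0 to -0.53, unadjusted p = 0.00154). The adjusted p of 0.0638 missed the threshold. It passed under a pseudocount of 0.1 (adjusted p = 0.0461) and under scaling by the 75th percentile (adjusted p = 0.0446). The gene was called as well with a term for the replicate number, and without control replicate 1, 100 pM replicate 1 or 10 nM replicate 4. Without the libraries that stand apart the difference was -1.08 (adjusted p = 0.199).

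At 10 nM CYP4A11 held 1.79, 2.58, 1.00, 6.09 and 1.27 FPKM, and at 100 pM 0.761, 3.62, 2.80, 4.30 and 5.16 FPKM. Both groups overlapped with control over most of its range, and the log2 differences were -0.17 (95% interval -0.90 to 0.57) and 0.17 (95% interval -0.57 to 0.90). At the middle dose the CYP4A11 mean was 91.7% of control and the CYP4F22 mean 29.6%. Replicate 4 was the highest library of both genes, and without it the shares were 59.8% and 16.5%. No test of the difference between the genes was made, since CYP4F22 was chosen on these libraries.

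CYP4A22, the near copy, was at 0.081, 0.758, 0.532, 1.21 and 0.639 FPKM in control. At 1 µM it was listed at 0 in replicate 1 and at 0.247, 0.265, 0.321 and 0.209 FPKM in the others. Only control replicate 1 was as low as the 1 µM libraries, and the 1 µM library of the same number was under it. Within the other replicate numbers the 1 µM library was also under the control library. A 2-sided exact permutation test of log2(FPKM + 1) gave p = 0.0476 for CYP4A22, p = 0.0159 for CYP4A11 and p = 0.0476 for CYP4F2 at 1 µM. These were the only ones under 0.05 among 49 such tests of 7 relatives in 7 groups, and each had a Benjamini-Hochberg adjusted value of 0.778.

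CYP4V2 ranged from 7.51 to 17.4 FPKM in control and from 6.32 to 16.7 FPKM at 1 µM. Its log2 difference was -0.15 (95% interval -0.75 to 0.45, adjusted p = 0.809), which became 0.01 without the libraries that stand apart. The eye disease gene was thus close to control at the dose at which CYP4F22 was lowest, within an interval that still allows a moderate change.

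**Figure D2:**
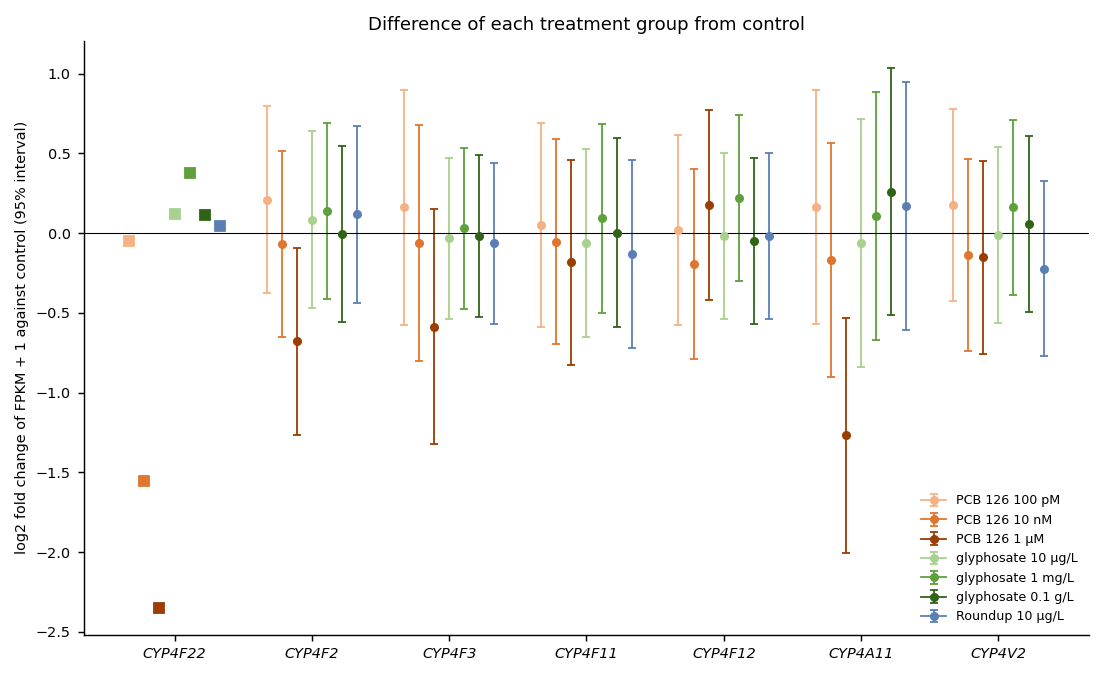
Log2 fold change of FPKM + 1 against control (y axis) for 7 CYP4 genes (x axis) in the 7 treatment groups (colours). Circles are estimates with 95% intervals from limma, squares mark CYP4F22, which is shown without an interval because it was chosen on these values, and CYP4A22 is left out because it did not pass the variance filter. At 1 µM PCB 126 the estimates of the relatives run from -1.27 for CYP4A11 to 0.18 for CYP4F12, and the intervals of all herbicide groups include 0.

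At the lower PCB 126 doses none of the 6 relatives tested was called, and none had an unadjusted p under 0.05. The share of all genes called was 0% at 100 pM (116 genes at an unadjusted p under 0.05) and 0.205% at 10 nM (473 genes at an unadjusted p under 0.05). In a linear trend over the 4 dose steps 3.78% of genes were called, 1921 of 9755 had an unadjusted p under 0.05, and again 0 of 6 relatives were called. CYP4A11 had a slope of -0.41 per step in that fit (unadjusted p = 0.00218, adjusted p = 0.0541) and CYP4F2 of -0.23 (unadjusted p = 0.0193, adjusted p = 0.169), and neither passed. Without control replicate 5 both were called, and the genes called lower in the whole table rose from 279 to 976. CYP4A11 alone was called without control replicate 1, 100 pM replicate 1 or 10 nM replicate 4.

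Glyphosate and Roundup left the relatives at control levels within the precision of 5 libraries. The share of all 9533 genes called by limma was 0% in each of the 4 groups against control, with 84 to 165 genes at an unadjusted p under 0.05, and 0 of 6 relatives had an unadjusted p under 0.05. The log2 differences ranged from -0.22 for CYP4V2 with Roundup to 0.26 for CYP4A11 with glyphosate at 0.1 g/L. The interval of the latter was -0.52 to 1.04. Between Roundup and glyphosate at 10 µg/L, and across the 4 herbicide groups, 0% of genes and 0 of 7 members were called, with 121 and 144 genes at an unadjusted p under 0.05.

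The 20 herbicide libraries also served as a second reference for PCB 126 at 1 µM that shares no library with the control group. In a fit of all 40 libraries, 2 of 6 relatives were called, both lower, where 9.37% of 9732 genes were called (167 higher and 745 lower). The agents and doses differ, so the contrast compares libraries under one treatment with libraries under others.

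CYP4A11 ranged from 0.573 to 7.40 FPKM (median 2.91) in the 20 herbicide libraries, and 19 of them were above every library at 1 µM PCB 126. Its log2 difference was -1.39 ± 0.30 (SE, adjusted p = 0.00182). CYP4F2 ranged from 2.37 to 8.56 FPKM (median 5.73), with 15 of 20 libraries above every library at 1 µM, and differed by -0.76 ± 0.22 (SE, adjusted p = 0.0195). Without the libraries that stand apart the differences were -1.24 for CYP4A11 (adjusted p = 0.0469) and -0.64 for CYP4F2 (adjusted p = 0.016). CYP4F2 was not called without replicate 1 (adjusted p = 0.208) or without replicate 5 (adjusted p = 0.0514) of the 1 µM group. The sum of all transcripts of the assembled locus that CYP4F2 shares with CYP4F11 differed by -0.11 (adjusted p = 0.784). CYP4F11 holds more FPKM there (33.7 against 5.33 in control), so this sum says little about CYP4F2 alone. CYP4F3 differed by -0.57 (adjusted p = 0.146), and CYP4F11, CYP4F12 and CYP4V2 by -0.16, 0.14 and -0.15 (adjusted p from 0.702 to 0.708). The median over all genes tested was -0.23. For CYP4F22 the difference, given as a description, was -2.51.

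At the level of transcripts, 11 of the 61 CYP4 transcripts passed the variance filter at 1 µM against control. None of the 10 that belong to relatives was called by limma, with 0.552% of 21181 transcripts called. CYP4F11 was divided among 5 such transcripts, and differences between them were not tested. ENST00000402119 went from 8.69 ± 2.32 FPKM in control to 13.0 ± 4.91 at 1 µM (log2 difference 0.49, adjusted p = 0.65), while ENST00000326742 went from 3.18 ± 2.27 to 1.00 ± 2.24, with 5.01 FPKM in its highest library (log2 difference -1.28, adjusted p = 0.5). These transcripts overlap in sequence, and how the assembler shared fragments among them cannot be read from FPKM.

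The partners of omega-oxidation were taken from a list of 11 genes, all of which were tested. At 1 µM against control 3 were called lower, 0 higher, where 1.87% of all genes were called. The median log2 fold change of the list was -0.40 (all genes -0.26). The 3 were the class I alcohol dehydrogenases ADH1A (-1.35 ± 0.35 SE, adjusted p = 0.0404), ADH1B (-1.58 ± 0.38, adjusted p = 0.0231) and ADH1C (-2.59 ± 0.53, adjusted p = 0.00655). They act on ethanol as well as on omega-hydroxy fatty acids, and since they are close copies of each other their values may share fragments.

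ADH1C held 24.7 to 56.2 FPKM in control. At 1 µM it was listed at 0 in replicate 1 and held 7.30 to 11.9 FPKM in the other 4, with no overlap. ALDH3A2, the fatty aldehyde dehydrogenase that takes the next step, did not pass (log2 difference 0.38, adjusted p = 0.521), and neither did the peroxisomal genes ABCD3, EHHADH, HSD17B4 and ACAA1 (-0.40 to -0.17). Without the libraries that stand apart, an alternative chosen after seeing the data, ADH1C was the 1 gene called lower and ALDH3A2 the 1 called higher. Over all genes, that fit called 319 lower and 201 higher. In the herbicide groups 0 of 11 were called against control, where 0% of all genes were called. With the 20 herbicide libraries as reference, 4 of the 11 were called lower at 1 µM PCB 126 and 0 higher, where 9.37% of all genes were called.

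Of 12 genes for PPARA and its known targets, 10 were tested and 1 was called lower at 1 µM against control, where 1.87% of all genes were called. PPARGC1A, a coactivator of PPARA, fell by 1.54 on the log2 scale (adjusted p = 0.00268), from 3.80 to 8.28 FPKM in control to 0.621 to 2.16 at 1 µM. PPARA itself differed by 0.35 (adjusted p = 0.585), and the targets CPT1A, PDK4, PLIN2, FABP1, ACADM, CREB3L3 and VNN1 did not pass (-0.69 to -0.23). The median of the list was -0.43 (all genes -0.26). PPARGC1A was also called lower without the libraries that stand apart. With the herbicide libraries as reference, 3 of the 10 genes tested were called lower at 1 µM and 0 higher, where 9.37% of all genes were called.

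**Figure D3:**
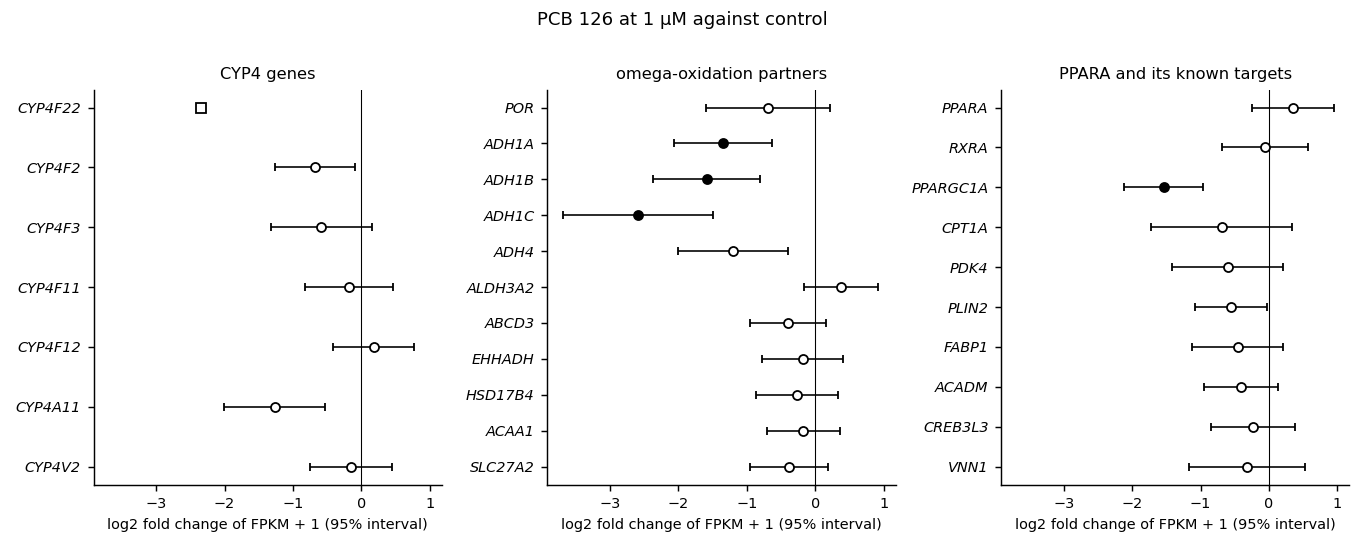
Log2 fold change of FPKM + 1 at 1 µM PCB 126 against control (x axis) for the CYP4 genes, the omega-oxidation partners and PPARA with its known targets (y axis). Points are limma estimates with 95% intervals, filled where the adjusted p was under 0.05, and the square without an interval is CYP4F22, which was not tested. The 3 class I alcohol dehydrogenases and PPARGC1A are filled and lie from -1.35 to -2.59.

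Most genes that act with CYP4F22 in skin were at low FPKM. Of 11 genes of acylceramide synthesis and transport, 3 passed the variance filter, which were ELOVL1, ABCA12 and ABHD5. At 1 µM against control 0 of the 3 were called, where 1.87% of all genes were called, so few genes say little about the pathway. With the herbicide libraries as reference, 1 of 3 tested was called lower, where 9.37% of all genes were called. The elongase ELOVL4, which makes the fatty acids that CYP4F22 acts on, was listed at 0 in every control and PCB 126 library. CERS3, the ceramide synthase of the pathway, was at 0.028 FPKM or less in those libraries. The other CYP4 genes CYP4B1, CYP4F8, CYP4X1 and CYP4Z1 did not pass the filter, and the sum of the 4 had a median of 2.07 FPKM in control and 0.623 at 1 µM.

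Some hepatocyte markers were lower at 1 µM as well. Of 12 markers, 3 were called lower at 1 µM against control, where 1.87% of all genes were called. The 3 were APOA2, TTR and FGB, and none of the 12 was listed at 0 in a whole group. The median log2 fold change of the list was -0.86 (all genes -0.26). In the dose trend 6 were called lower (3.78% of all genes called), and against the herbicide libraries 5 (9.37%). The summed level ranged from 14659 to 23065 FPKM in control and from 6083 to 14531 at 1 µM. ALB differed by -1.08 (adjusted p = 0.0564). HNF4A, a transcription factor that defines hepatocytes, differed by 0.41 (adjusted p = 0.526), CYP3A4 by 0.39 (adjusted p = 0.601) and ASGR1 by 0.12 (adjusted p = 0.834). Without the libraries that stand apart 4 hepatocyte markers were called lower at 1 µM, ALB in addition to APOA2, TTR and FGB, and 1 biliary marker, SPP1. Over all genes, that fit called 319 lower and 201 higher. Of 10 biliary markers, 3 were tested and 0 called, and the sum ranged from 225 to 454 FPKM in control and from 122 to 217 at 1 µM, with EPCAM at 0 there. Of 8 mesenchymal markers, 6 were tested and 1, COL3A1, was lower, and the sum ranged from 41.05 to 91.9 FPKM in control and from 50.8 to 190 at 1 µM, with COL1A2 at 0 there. With the libraries that stand apart left out, 3 mesenchymal markers were called higher (COL1A1, DCN and LUM) and 2 lower (COL3A1 and PDGFRB). Against the herbicide libraries 2 biliary markers were called lower, and 2 mesenchymal markers higher and 2 lower (9.37% of all genes called). Their part in the CYP4 results was not tested, and in these bulk samples fewer cells of a type and less RNA per cell cannot be told apart.

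The genes whose pattern was most like that of CYP4F22 over the 40 libraries, among 9732 genes with variable FPKM, were COL3A1 (Pearson r = 0.958), VSIG1 (r = 0.951), SFRP2 (r = 0.940), PPP1R3B (r = 0.932) and STC1 (r = 0.929). COL3A1 had a mean of 12.5 FPKM in control, 11.6 at 100 pM, 3.30 at 10 nM and 0.576 at 1 µM. VSIG1 had means of 7.18, 7.57, 3.34 and 0.641 FPKM in the same order. Both, like CYP4F22, were at control levels at 100 pM and low from 10 nM on. The points of such a correlation share libraries and dose groups, so it is a description.

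**Figure D4:**
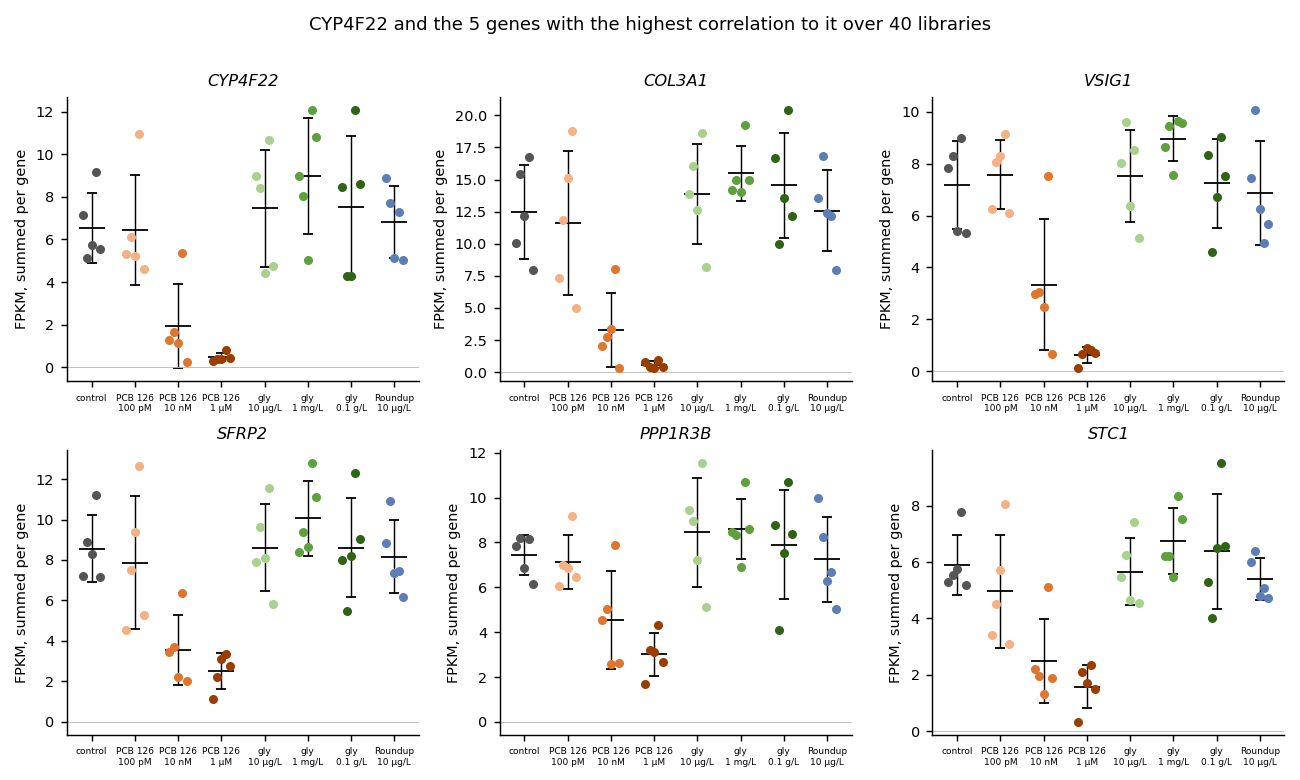
FPKM (y axis, summed per gene name) of CYP4F22 and of the 5 genes most correlated with it, in each of the 40 libraries by group (x axis, gly is glyphosate). Points are libraries and bars are mean ± SD of 5. All 6 genes are lowest on average at 1 µM PCB 126, and replicate 4 is the highest library of each at 10 nM.

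Among the genes most like CYP4F2 were ACSM2B (r = 0.943), ADH6 (r = 0.932), PIPOX (r = 0.930) and FGG (r = 0.927). ACSM2B had means of 11.5 FPKM in control and 5.42 at 1 µM. Those most like CYP4A11 were UGT2B10 (r = 0.882), TF (r = 0.858), AHSG (r = 0.817), GSTA2 (r = 0.805) and SERPINA4 (r = 0.803). Within the family, CYP4A11 followed CYP4A22 (r = 0.906) and CYP4F2 followed CYP4F3 (r = 0.873), the pairs that share sequence. CYP4F22 was closest to CYP4F2 (r = 0.694) and CYP4A11 (r = 0.668). With the other genes of its cluster the correlation was 0.50 for CYP4F3, 0.228 for CYP4F11 and 0.170 for CYP4F12, each over 40 libraries.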

How the data were processed

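RNA of 40 HepaRG libraries was depleted of ribosomal RNA and made into directional libraries. Per the submitters' processing notes and the methods, the authors aligned reads to GRCh38 with HISAT2, assembled transcripts with StringTie using Ensembl annotation, and deposited FPKM of 234960 transcripts per library in a PCB 126 table (20 libraries) and a glyphosate table (25), which share 5 identical control columns. Columns with values below 0 (4 and 6 values) were recorded as a score among the deposited columns, and these values were set to 0. The titles carry library numbers in 5 consecutive runs with 1 library of every group in each; the run served as the replicate number and only names a library.

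FPKM were summed per gene name, genes with a variance above 1 were kept, and log2(FPKM + 1) was fitted with limma 3.58.1 in R 4.3.3, all groups of a table together, with Benjamini-Hochberg adjustment over all genes (threshold 0.05). The limma tests were checked on simulated data with large changes, high values and no filter, which does not speak to genes at low FPKM. Single values were compared by 2-sided exact permutation tests, with a smallest possible p of 0.00794. No count test was used because FPKM are not counts, and the number of libraries limits the precision. Genes outside the family were named from lists by pathway or marker, or as the 5 most correlated with CYP4F22, CYP4F2 or CYP4A11; libraries apart lay beyond the largest gap on the first component. Some genes are not reported here and were left out of the lists and their counts. The members and lists were chosen with earlier results of these data known. The alternatives were another pseudocount, other filters, 2 scalings, a library-size term, 2-group fits, the most abundant transcript, the assembled locus, array weights, a replicate block, and leaving out libraries. Reading frames and windows of 75 bases came from GENCODE version 44 and were aligned with Biopython 1.88.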

Additional observations from a re-analysis of the deposited data

Results flagged for a closer look

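Each gene was examined in each of the 8 groups of 5 libraries for a highest or lowest library separated from the rest by a gap over 0.71 of the group's range (Dixon's criterion). Of 64 such sets 5 were past it, and chance alone passes about 1 in 20.

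CYP4F22 had 2 of them, both in replicate 4 of PCB 126 groups. At 100 pM that library held 10.9 FPKM, against 4.60 to 6.13 in the other 4. At 10 nM it held 5.37 FPKM, against 0.248 to 1.65 in the others. CYP4F11 at 10 nM was highest in replicate 2, at 54.1 FPKM against 21.1 to 29.5.

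CYP4A22 with glyphosate at 10 µg/L was highest in replicate 4, at 1.12 FPKM against 0.49 to 0.627 in the others. At 1 mg/L it was lowest in replicate 1, at 0.157 FPKM against 0.837 to 0.928. None of the 5 libraries is among the 9 that stand apart.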

How the results depend on the processing

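The number of relatives called at 1 µM against control, 0, became 1 with a pseudocount of 0.1, 75th-percentile scaling, the assembled locus or the replicate block (CYP4A11 lower each time), 1 with quantile normalization (CYP4F12 higher) and 2 with array weights (CYP4F2 and CYP4A11 lower), and lay between 0 and 1 when single libraries were left out (control replicate 1, 100 pM replicate 1 or 10 nM replicate 4, CYP4A11 each time). In the dose trend it became 1 with 75th-percentile scaling, the assembled locus or the block (CYP4A11), and 0 to 2 without single libraries. Array weights also called 1 relative in Roundup against control (CYP4V2 lower) and 4 members in Roundup against glyphosate and across the herbicide groups (CYP4F22, CYP4F11, CYP4F12 and CYP4V2), where they called 3470, 4448 and 5891 genes in all against 0; their estimation stopped before convergence in 7 of 11 fits. Against the herbicide libraries, 2 relatives became 1 with the assembled locus (CYP4A11), where CYP4F2 is summed with CYP4F11, and 1 to 2 without single libraries. The causes were not tested. The labels do not say what libraries of one replicate number share. Their deviations correlated over 0.1 in 7 of 30 pairs of PCB 126 libraries and 19 of 50 of the glyphosate table, against 4 of 120 and 7 of 200 pairs with different numbers. Pairs of one number thus passed 0.1 more often than other pairs, though not every pair did. The main fit left the numbers out, and a source shared within a number was not tested. With the block the genes called at 1 µM rose from 182 to 357. Genes called there ranged from 118 to 1085 over all alternatives, in the dose trend from 223 to 1242 (369 as reported), at 10 nM from 14 to 239 (20), and against the herbicide libraries from 417 to 3121 (912). Quantile normalization gave 532 higher and 553 lower against 63 and 119, and moved the median change over all genes from -0.26 to -0.01. Without the libraries that stand apart no count of called members changed. No fold change of a relative was called in opposite directions; of 494 values under an alternative, 99 had the other sign and were uncalled in both fits, CYP4F11 and CYP4V2 at 1 µM among them. The paper gives a range of reads per sample, but the depth of single libraries was not used here. Values under 1 FPKM are the least certain.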

Other observations

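The level of the CYP4A pair varied with the run of library numbers in most groups. CYP4A22 was lowest in the first run in 7 of the 8 groups and highest in the fourth run in 7 of 8. CYP4A11 was lowest in the first run in 5 of 8 groups and highest in the fourth in 7 of 8. Over all groups the median CYP4A11 level was 1.25 FPKM in the first run (0.0486 to 1.79) and 5.24 FPKM in the fourth (0.918 to 7.40). CYP4F22 was also highest in the fourth run in 7 of 8 groups, with a median of 9.92 FPKM, against 7.81 in the first. CYP4F12 was lowest in the fifth run in 5 of 8 groups, and this run holds 5 of the 9 libraries that stand apart. What the runs of library numbers stand for is not given in the labels, and these values were looked at after the tests were made.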
